A study of Xenopus tropicalis with 3 samples.

Results

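The 7 genes described here mark successive steps in the making of a neuron: the progenitor genes sox2 and sox3, the proneural gene neurog1, the early neuronal genes elavl3, elavl4 and stmn2, and map2, a gene of the mature neuron. They were chosen as members of a spinal cord and neuron list, with earlier results of these data known. Their data are the accessible chromatin peaks called at stage 65 within each annotated gene span (UCB_Xtro_10.0 gene table) and 50 kb to each side, called the window below. The windows of the 7 genes, of 21749 protein-coding genes on chromosomes 1 to 10, held 199 of the 311625 peaks of that stage. By summit, 64 of the 199 lay inside the gene spans and 135 outside them, and 41 overlapped another coding gene.

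The tissue was the urostyle, the rod of bone behind the last vertebra of the frog, taken from tadpoles of Xenopus tropicalis late in metamorphosis. Open DNA was profiled by ATAC-seq, in which a transposase inserts adapters where chromatin is accessible. Stage 65 was represented by 1 library, and so were stage 61 and stage 56. The peaks of those earlier stages carry chromosome names of another kind than the gene table and are not analysed here. No genotype, treatment or number of pooled animals is given in the labels. With 1 library there is no replicate, so nothing below was tested, and every interval covers counting error only. In bulk tissue a lower peak can mean fewer cells with the site open or less opening per cell, and these cannot be told apart.

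In the vertebrate neural tube, the SoxB1 transcription factors encoded by sox2 and sox3 keep cells in the progenitor state. The basic helix-loop-helix factor encoded by neurog1 starts neuronal differentiation. Cells that leave the cycle then make the RNA-binding Elavl proteins, which stabilise and splice neuronal transcripts, and cytoskeletal proteins such as stathmin 2 and Map2. An accessible site near such a gene can be a promoter, an enhancer or neither, and accessibility alone does not measure transcription.

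A fold here is the peak caller's own ratio of the pileup at the summit to a background, each with 1 added. The background was a single genome-wide value of 5.68 overlapping fragments or extended reads, so a fold of 3.29, the median of the 199 peaks, stands for 21 of them. The median over all stage 65 peaks was also 3.29. Folds under 4 made up 141 of the 199 peaks (70.9%), against 70.3% of all peaks. The median width was 549 bp in the 7 windows and 569 bp over all peaks. Most sites around these genes were thus of the ordinary kind in this library, and a few stood out.

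A peak lay within 1 kb of a gene end at 6 of the 7 genes, and such a peak was called at 85.7% of all protein-coding genes. That share is at the background. The exception was elavl4. Peaks within 1 kb of both ends were called at 5 of the 7 genes and at 45.2% of all. At neurog1, sox2 and sox3, however, the gene is so short that the same peak served both ends. A gene-end peak with a fold of at least 10 was called at 3 genes, neurog1, elavl3 and map2, and at 12.2% of all protein-coding genes. The count of 3 cannot be read as an excess, because the map2 peak was among those that drew attention to the gene. Of 54 other neural genes, described below, 4 had a gene-end peak of that fold. When peaks were assigned by summit, map2 alone of the 7 genes kept one. The best gene-end fold was then 2.99 at elavl3, and neurog1 had no gene-end peak. The share of all genes with a fold of at least 10 by summit was not computed. The median over the 7 genes of the highest gene-end fold was 4.94, and over all genes, with those lacking a gene-end peak set to 0, it was 4.04. The gene table gives no strand, so lower end and higher end below refer to the coordinate, not to the start or finish of transcription.

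Outside elavl3, the windows of these genes held fewer peaks per 10 kb than the median gene. The 7 windows held between 1.17 peaks per 10 kb (elavl4) and 3.67 (elavl3), with a median of 1.56, whereas all protein-coding genes had a median of 2.37. Density was 1.28 at sox3, 1.48 at neurog1, 1.57 at sox2, 1.69 at stmn2 and 1.92 at map2, which placed these genes between percentiles 6.12 and 28.9 of all genes. The elavl4 window lay at percentile 4.27 and the elavl3 window at percentile 91.3. Peaks covered a median of 11.5% of the 7 windows and 17.8% of the windows of all genes. The map2 window, with 19.2% covered, lay at percentile 54.3. Part of that cover came from tall, wide peaks below the gene, described later, and the map2 span alone was 9.23% covered (percentile 27.2). Gene-poor surroundings went with low density across the genome. The 1091 genes with no coding neighbour within 50 kb had a median of 1.82 peaks per 10 kb, and the 3226 genes with 6 or more had 2.88. The windows of neurog1, sox2 and sox3 had no coding neighbour, and within that class they lay at percentiles 30.9, 36.3 and 20.9. The part of neighbouring genes in the low densities was not tested.

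**Figure D1:**
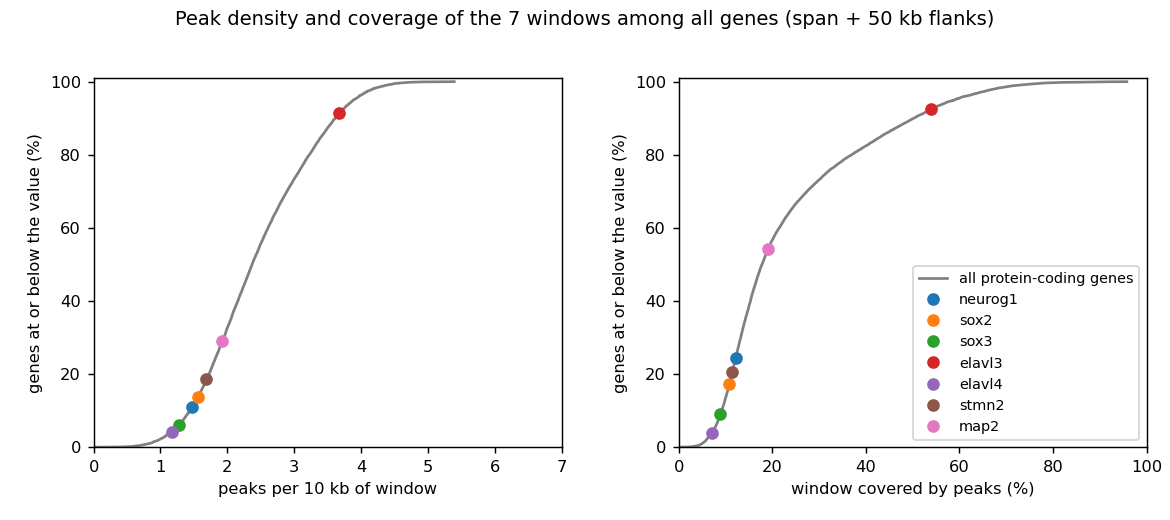
The grey line gives, for all 21749 protein-coding genes, the percentage of genes at or below each value of peaks per 10 kb (left) or of the percentage of the window covered by peaks (right); coloured points are the 7 genes. elavl3 stands near the top of both curves (3.67 peaks per 10 kb, 53.9% covered) and elavl4 near the bottom (1.17 peaks per 10 kb, 7.13% covered).

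The progenitor gene sox2 had the flattest profile of the 7. Its window on chromosome 5 held 16 peaks, with folds from 2.55 to 4.79 and a median of 3.67. The gene itself (108035485 to 108037707) was 58.1% covered by 1 peak, at 108036417 to 108038197, with a fold of 4.19 and a summit 799 bp inside the higher end. This pileup of 27 has a 95% Poisson interval of 17.8 to 39.3. The highest folds, 4.79 each, belonged to peaks on the higher side at 108045768 to 108046916 and 108053998 to 108054447, with summits 8580 and 16400 bp from the gene. Their pileup was 31 (21.1 to 44.0), and the intervals of all 15 other peaks of the window overlapped that of the top peak. By these intervals no sox2 site stood apart from the top peak, though overlap of intervals is not a test of a difference. Its highest fold lay at percentile 6.82 of all gene windows, while its median fold lay at percentile 77.7. Summits were split between 9 on the lower side, 1 in the gene and 6 on the higher side.

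The related SoxB1 gene sox3 (chromosome 8, 55346463 to 55348089) had a similar layout. The gene was 73.3% covered by a peak of 1242 bp at 55346898 to 55348139, which passed the higher end and had a fold of 4.94 (pileup 32, interval 21.9 to 45.2). Just beyond that end lay 2 smaller peaks, with summits at 1492 and 2611 bp and folds of 3.74 and 4.34. The second of these ended before LOC116406717, a long non-coding RNA gene that begins at 55351965. The strongest sox3 peak was a distant one, at 55393814 to 55394956, with a summit 46447 bp from the higher end, a fold of 7.19 and a pileup of 47 (34.5 to 62.5). Its interval overlapped those of 4 of the other 12 peaks, the gene-body peak among them. As the highest fold of the window, 7.19 lay at percentile 33.1 of all genes. With 13 peaks in all, sox3 had the fewest of the 7 windows.

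The proneural gene neurog1 differed from both sox genes in having a single dominant site. On chromosome 3 a peak of 3402 bp, at 25445214 to 25448615, began 2199 bp below the gene (25447413 to 25448847) and covered 83.8% of it, percentile 97.1 for span coverage among all genes. The gene is only 1435 bp long, and the short genes sox2 and sox3 lay at percentiles 89.6 and 94.8 by that measure. The fold of the neurog1 peak was 14.8, with a pileup of 98 (79.6 to 119), and its summit lay 1315 bp outside the lower end. The next highest fold in the window was 5.39, at 25420856 to 25421395, which makes a ratio of 2.75. The intervals of all 14 other peaks lay below that of the dominant peak. These others were uneven: 11 further summits lay on the lower side and 3 on the higher side. As the best gene-end fold, 14.8 lay at percentile 92.8 of all genes. The peak counted there by overlap only, and by summit neurog1 had no gene-end peak. As the highest fold in the window, 14.8 lay at percentile 61.5, since 52.7% of all gene windows held a peak of fold 10 or more. By that measure 3 of the 7 windows qualified, those of neurog1, elavl3 and map2.

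The 2 elavl genes, which encode the closely related RNA-binding proteins HuC (elavl3) and HuD (elavl4), stood at opposite ends of the range. The elavl3 window on chromosome 3 held 49 peaks that covered 53.9% of it, and the elavl4 window on chromosome 4 held 19 that covered 7.13%. Within the gene spans peaks covered 42.0% of elavl3 (139217828 to 139251163) and 4.63% of elavl4 (95688514 to 95751300). Their surroundings differed as well: 5 coding genes lay within 50 kb of elavl3 and 1, agbl4, within 50 kb of elavl4. Among genes with 3 to 5 coding neighbours, elavl3 lay at percentile 91.3 for density, and elavl4 lay at percentile 5.52 among genes with 1 or 2. The part of the surroundings in this contrast was not tested.

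Sites at elavl3 were many and spread out. By its highest fold the window lay at percentile 66.6 of all genes, lower than its percentile for density. It held 5 peaks with a fold of at least 10. The highest, with a fold of 17.2 each (pileup 114, interval 94.0 to 137), lay at 139190353 to 139192954, inside the neighbouring ccdc151, and at 139267401 to 139269688, between elavl3 and znf653. Inside elavl3 the strongest peak was 4919 bp wide, at 139239993 to 139244911, with a fold of 16.2 and a summit 7713 bp from the higher end. It was accompanied by peaks of fold 9.58 and 9.73, with summits 12675 bp from the lower end and 2095 bp from the higher end. The best gene-end peak, of fold 12.7 at 139214337 to 139216912, stopped 916 bp short of the lower end and had its summit 2431 bp away, so it counted by overlap and not by summit. By summit, the gene-end peak was a weak one of fold 2.99, 142 bp beyond the higher end. The summit nearest to the lower end lay 1765 bp inside, with a fold of 2.1 at 139219298 to 139219619. Of the 49 peaks 24 overlapped a coding neighbour, with a median fold of 3.52, and the other 25 had a median of 3.59. The widest, 15910 bp at 139271833 to 139287742 with a fold of 8.38, reached into znf653.

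At elavl4 no peak was called within 1 kb of either end. The nearest summit lay 2107 bp inside the higher end, with a fold of 2.55 at 95749079 to 95749393, and the nearest to the lower end lay 5741 bp inside, with a fold of 2.69. Within the gene 7 peaks were called, of which the highest was narrow, 379 bp at 95740593 to 95740971, with a fold of 4.64 (pileup 30, interval 20.2 to 42.8). The strongest of the window was 3285 bp wide at 95650509 to 95653793, 36942 bp below the gene by its summit, with a fold of 5.69. Folds under 4 made up 17 of the 19 peaks. The median fold of 2.84 lay at percentile 4.52 of all gene windows, the lowest of the 7. A site just under the calling threshold would not appear in the list, so the absence of a gene-end peak does not show that the promoter was closed.

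**Figure D2:**
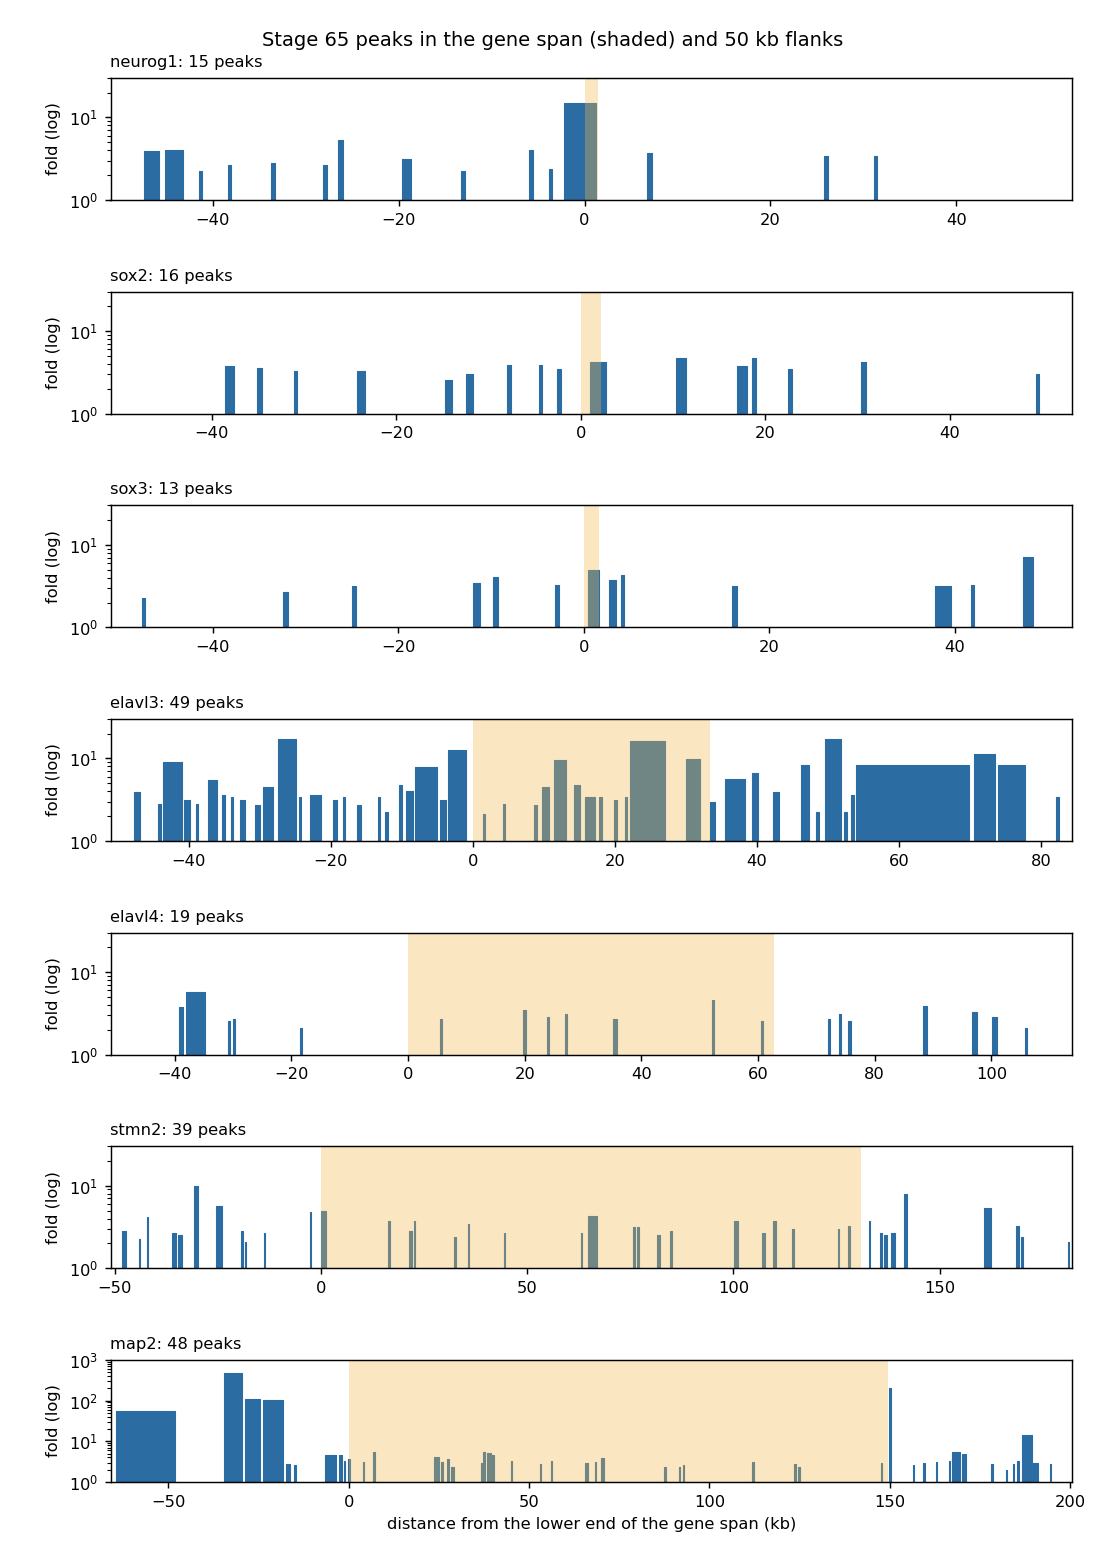
Each row shows 1 window, with the distance in kb from the lower end of the gene span on the horizontal axis and the fold on a logarithmic vertical axis that is extended for map2; each bar is a peak drawn over its width, and the shaded band is the gene. A single tall peak sits over neurog1 (14.8), sox2 has peaks of nearly equal height, elavl3 is filled with peaks, and map2 has 4 tall peaks on the lower side and 1 narrow one of 205 at the higher end.

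The stathmin gene stmn2, whose protein destabilises microtubules in growing axons, is a long gene (chromosome 6, 123297558 to 123428570) with 39 peaks in its window. Its gene-end peak lay at the lower end only, at 123297615 to 123298870, starting 57 bp inside the gene, with a fold of 4.94 and a pileup of 32 (21.9 to 45.2). A second peak of fold 4.79 stood 2617 bp outside the same end. Inside the gene 19 summits were called, and none of these peaks had a fold above that of the lower end peak. The stronger sites lay outside. A peak at 123266824 to 123267852, with its summit 30407 bp below the gene, had a fold of 9.88 (pileup 65, interval 50.2 to 82.8). On the higher side a peak of 624 bp at 123438926 to 123439549, 10812 bp from the gene, had a fold of 7.94. Another, of fold 5.39 at 123458342 to 123460082, overlapped hey1, a Notch target gene. Only 2 of the other 38 peaks had intervals that overlapped that of the top peak. As the highest fold of the window, 9.88 lay at percentile 47.0 of all genes. At the higher end of stmn2 the nearest summit lay 1920 bp outside, with a fold of 3.74.

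The neuronal microtubule gene map2 (chromosome 9, 55869111 to 56018569) had weak peaks inside the gene and the strongest of the 7 windows outside it. Its protein binds and stabilises microtubules in dendrites. The 24 peaks with summits inside the gene had folds of at most 5.39 and covered, with those reaching in, 9.23% of the span, percentile 27.2 of all genes. At the lower end a peak of 457 bp, at 55869019 to 55869475, had a fold of 3.74 with its summit 191 bp inside. Another within 1 kb of that end, at 55867845 to 55868236, had a fold of 3.29 with its summit 971 bp outside. Outside the gene, 5 peaks had a fold of 50 or more. A window with at least 1 such peak was found at 6.1% of all protein-coding genes, and 1 of the 7 windows, that of map2, qualified. A window with 5 or more, a number set by the map2 count itself, was found at 0.0966% of genes. One of the 5 map2 peaks had its summit outside the window, and by summit the count was 4. The other 43 peaks of the window had a median fold of 3.14 and a highest fold of 14.7. That highest one, at 56055830 to 56058599, overlapped the coding gene unc80, which begins at 56028234 on the higher side of map2. Of all 48 peaks of the window 15 overlapped a coding neighbour, with a median fold of 3.29, and the other 33 had a median of 3.14.

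The strongest of these 5 peaks lay below the gene, at 55834453 to 55839625, with a width of 5173 bp, a fold of 488 and a pileup of 3259 (3150 to 3370). Its summit was 31016 bp from the lower end. It was followed towards the gene by peaks of fold 112 (55840375 to 55844457) and 104 (55845366 to 55850949), and preceded by one of fold 55.4 at 55804762 to 55820949. That last peak was 16188 bp wide and reached into the window only by its higher part, with its summit 59013 bp from the gene. These 4 peaks covered 31028 bp of a stretch of 46188 bp. No coding gene of the table overlapped them, and LOC105946248, between them and map2, began at 55863252.

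The peak at the other end of the gene was of a different shape. It lay just beyond the higher end of map2, at 56018828 to 56019487, and was 660 bp wide with a fold of 205 and a pileup of 1370 (1298 to 1445). The 258 bp between the gene and the peak were outside any called site, and the summit, 173 bp into the peak, lay 432 bp past the gene end. Its neighbours were weak: the next peak below, 1857 bp away, had a fold of 2.99, and the next above, 5989 bp away, a fold of 2.55. The peak was among those that drew attention to the gene, so its height is a description. By fold it ranked 122 of all peaks. A fold of 100 or more was reached by 290 peaks, of which 7 were under 1 kb wide (2.41%). Of the 290, 3 were 660 bp wide or narrower, the map2 peak included. The 244 peaks with folds of 100 to 400 had a median width of 11838.5 bp, with quartiles of 4695 and 21280 bp. Seen by width, the 80476 peaks of 500 to 800 bp had a median fold of 3.29 and a 99th percentile of 7.79. In that width class 18 peaks had a fold of 50 or more, and the map2 peak ranked 3.

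The other 6 narrow peaks of that height did not share a position relative to genes. The strongest, with a fold of 380 and a width of 469 bp, lay 14520 bp from insc on chromosome 4. One with a fold of 311 lay 2666 bp from ash1l on chromosome 8, and one with a fold of 240 lay inside atrn on chromosome 1, 38346 bp from its nearer end. The remaining 3, with folds of 287, 171 and 116, were between 41.8 and 58.4 kb from the nearest coding gene. Of the 7, the map2 peak alone was within 1 kb of a gene end. All folds rest on the same genome-wide background, and no measure of copy number or of read mapping is in the peak list. The part of repeated or collapsed sequence in the tall map2 peaks was not tested.

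**Figure D3:**
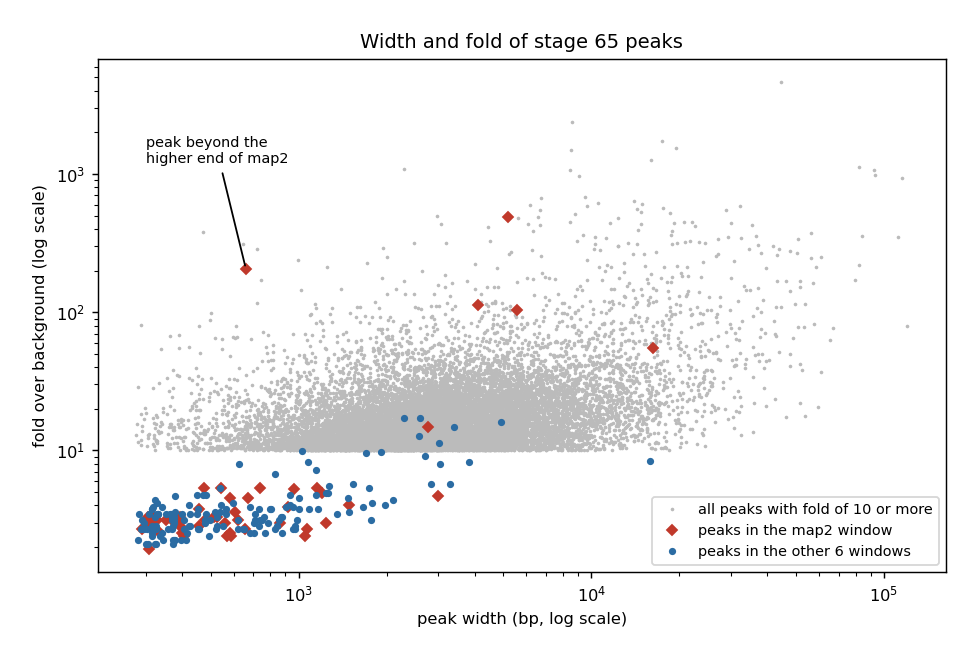
Each point is a stage 65 peak, with its width in bp and its fold on logarithmic axes; grey points are all peaks of the library with a fold of 10 or more, red diamonds the 48 peaks of the map2 window and blue circles the 151 peaks of the other 6 windows. The peak beyond the higher end of map2 (660 bp, fold 205) lies far to the left of most peaks of its height, whereas the other 4 tall map2 peaks are between 4083 and 16188 bp wide.

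Other neural genes were also near the background in their share with a gene-end peak, but most did not share the low peak density of the 7 windows. Over 7 lists of related genes, 61 different genes were measured, and 55 had a gene-end peak (90.2%), against 85.7% of all protein-coding genes. The median of their highest gene-end fold was 3.89, beside 4.04 for all genes. The 61 include the 7 genes described above, and without them 49 of 54 (90.7%) had a gene-end peak. These shares of genes with any gene-end peak are near the background. A fold of at least 10 was reached by 7 of the 61, but by 4 of the 54 other genes, against 12.2% of all protein-coding genes. Median peaks per 10 kb were 2.25 in the progenitor list, 2.3 in the proneural and 2.34 in the stathmin list. They were 2.43 in the microtubule-associated and mature neuron lists and 2.27 in the spinal cord list, against 2.37 for all genes. Only the elavl family was sparse, at 1.27.

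Among progenitor genes 11 of 11 had a gene-end peak, with a median fold of 4.04. The highest were sox3 itself (4.94) and notch1, the receptor gene that holds back neuronal differentiation (4.64). SoxB relatives were close to sox2, with 3.89 at sox1 and 4.04 at sox21. Among proneural genes 12 of 12 had one, with a median of 4.12. After neurog1 the highest was myt1, a zinc finger gene of neuronal commitment (6.44), in a window 53.3% covered by peaks. The other neurogenin genes were at 4.79 (neurog2) and 4.19 (neurog3), so the fold of 14.8 at neurog1, counted by overlap only, was not shared within its family. In the elavl family 3 of 4 had a gene-end peak, with 4.49 at elavl2 and 3.89 at elavl1, the member made in most cells. The windows of elavl1 and elavl2 resembled that of elavl4 in density, with 1.38 and 1.05 peaks per 10 kb, and elavl3 alone was dense.

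In the stathmin family 4 of 4 had a gene-end peak. It was highest at stmn3 (19.0) and stmn4 (12.1), and lower at stmn2 (4.94) and stmn1 (4.19). Peaks covered 61.3% and 48.8% of the windows of stmn3 and stmn4, against 11.5% at stmn2, so those higher folds stood in widely covered stretches. Among microtubule-associated genes 6 of 7 had one, led by map2 and by map4, which is made in many tissues (21.7). The list's median was 3.74, and dcx, which encodes doublecortin of migrating neurons, had none. Among genes of mature neurons 9 of 10 had one. The highest were ina, an intermediate filament gene (12.1), and rbfox3, which encodes the antigen NeuN (6.59), and cntn2 had none. Genes of the spinal cord list, most of them transcription factors of its cell domains, had one in 10 of 13 cases, with the lowest list median (3.29). The highest were en1 (8.38) and mnx1 of motor neurons (7.34), while chat, which encodes the acetylcholine-making enzyme, lhx3 and nkx2-2 had none. Peaks covered 69.6% of the en1 window and 19.1% of the mnx1 window.

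**Figure D4:**
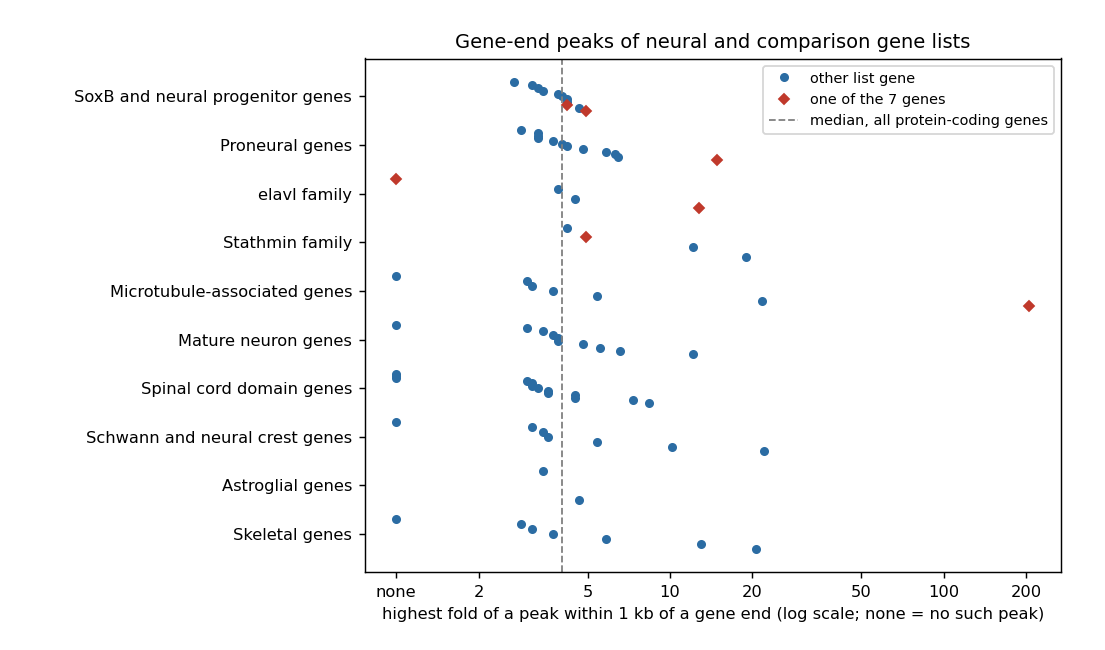
Each point is a gene, placed by the highest fold of a peak within 1 kb of either gene end (logarithmic axis, with genes lacking such a peak at the left), in rows for 7 neural lists and 3 lists of other cell types; red diamonds are the 7 genes described here and the dashed line is the median over all protein-coding genes, 4.04. In most rows the points lie on both sides of the dashed line, and map2 at 205 stands apart from the others.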

How the data were processed

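The labels' protocols describe dissection in ice-cold buffer, crushing with a pestle and Omni-ATAC, whereas the series' design text speaks of laser capture. The submitters' processing notes name MACS2, Genrich, Bowtie2 and Picard. Versions, roles, build, filters and read total were not given in the sources used here. For each peak the deposited stage 65 list gave a fold (ratio), a −log10 p, a −log10 q and a score equal to 10 times −log10 q within 1 unit. The smallest deposited −log10 q was 1.45. No peak was narrower than 278 bp and no gap smaller than 279 bp, so sites closer together than that appear as 1 peak.

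In 100% of peaks the deposited fold was a whole multiple of 0.150 (tolerance 0.01 of a step, wider for the largest), which gives the background of 5.68 and each summit pileup. The deposited −log10 p matched the Poisson probability of a higher pileup at that background (median absolute difference 2.6e-06 over 310258 peaks). Exact Poisson intervals (95%) treat each overlapping fragment or extended read as independent; a summit is the highest point of its peak, so its pileup is biased upwards.

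Positions are 1-based. The build of the list is not stated and was inferred from chromosome names and the last peaks: the last peak of each of chromosomes 1 to 10 ended between 52 bp and 191 kb beyond its last annotated gene. A peak belonged to a window when they overlapped by at least 1 bp. Percentiles split ties evenly and describe where a gene lies among all 21749. Window counts were checked on simulated data. Of 3 astroglial genes 1 matched no symbol; hes5 was matched to hes5.1 as a synonym. For all 7 genes every gene-end peak, strongest peak and nearest peak are described; for the related lists the rule was to name the 2 highest gene-end folds and up to 2 genes without a gene-end peak, and other genes named, among them nkx2-2, family members and neighbours, were chosen after their values were seen. The genes and lists were chosen with earlier results of these data known. The gene table has no strand, so gene starts were not separated, and the planned promoter motifs were not searched because no sequence was used here. A result on a gene of the Schwann cell and neural crest list is not reported here. Python 3.11.15, pandas 2.3.3, numpy 2.4.6 and scipy 1.17.1 were used.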

Additional observations from a re-analysis of the deposited data

How the results depend on the processing

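The number of genes with a gene-end peak was 6 with windows of 500 bp, with 50% of the peak required inside and with −log10 q of at least 5, 5 when peaks were assigned by summit (neurog1 was lost) and 7 with windows of 2.5 kb (elavl4 gained a peak of fold 2.55). Over all protein-coding genes the shares under these settings were 76.8%, 75.8%, 72.9%, 75.4% and 95.2%. At elavl3 the best gene-end fold fell to 2.99 with 500 bp windows, by summit and with 50% inside. The 199 peaks became 97 with 10 kb flanks, 140 with 25 kb and 323 with 100 kb, since the window sets the count, and 126 with −log10 q of at least 5. Merging peaks under 500 bp apart left 175. The median over the 7 genes of the highest window fold was 9.88 with 50 kb flanks, against 10.6 over all protein-coding genes. It was 4.94 with 10 kb flanks and 7.94 with 25 kb, as distant peaks of stmn2, sox3 and others dropped out. The map2 maximum of 488 was the same with −log10 q of at least 5 and after merging. With flanks of 10 and 25 kb, tried after the data were seen, it was 205, since the peak of 488 lies farther out, and with 100 kb it was 488. The alternative that counts gene starts alone was not run. No paired analysis was possible because each stage has 1 library. Pileups of 12 to 40 leave folds under 6 that lie close together poorly separated, although the lowest and the highest of them had separate intervals.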

Other observations

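Markers of other cell types that the dissected tissue could hold had gene-end peaks of a like range to the neural genes. Among Schwann cell and neural crest genes the highest gene-end folds were at mpz, which encodes the main myelin protein of peripheral nerve (fold 22.0), and erbb3, a neuregulin receptor gene (10.2). Peaks covered 71.2% of the mpz window and 15.3% of the erbb3 window. The median of the highest gene-end fold over this list was 3.59, beside 4.04 for all protein-coding genes. Both measured astroglial genes had a gene-end peak, with folds of 4.64 (aqp4) and 3.44 (slc1a3). Skeletal genes, which would mark the labelled tissue, had one in 6 of 7 cases, led by sox9 (20.7) and bglap, the osteocalcin gene (13.0), with none at acan. The median of the skeletal list was 3.74, also under the 4.04 of all genes. Peaks covered 70.5% of the bglap window and 18.8% of the sox9 window. The share of 85.7% in the skeletal list is that of all protein-coding genes. With 7 genes and so high a share over all genes, this count could not separate the labelled tissue from others. A gene-end fold of at least 10 was reached at 2 of the 7 skeletal genes and at 12.2% of all protein-coding genes.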
